A study of Homo sapiens with 9 samples.

Results

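Internal exons are the exons of a gene that lie between its first and its last exon, and in protein-coding genes they hold most of the coding sequence. The windows described here are those of the deposited table of cross-link counts that lie in such exons. They were chosen by annotation alone: the exon number of the window was above 1 and below the highest exon number listed for its gene, the gene was protein-coding and encoded in the nucleus, and at least 3 exon numbers were listed for it. The rule took 1258641 of 15767966 windows (7.98%), or 49.1% of the 2564769 exon windows, from 125979 exons of 12142 genes. The same genes held 131965 windows in the first exon, 856277 in the last exon and 11744360 in introns.

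The windows come from an eCLIP experiment in Huh7 cells, a human hepatoma line, which were irradiated with UV light to cross-link proteins to RNA and had no other treatment. Libraries were made from RNA recovered with an antibody against MDH2, the malate dehydrogenase of the mitochondrial TCA cycle (MDH2 IP), from a portion of the lysate that was set aside before the IP and run in the same size range of the gel (SMI), and from an IP with isotype-matched IgG (IgG IP). Each of the 3 groups had 3 libraries, with 14 cycles of PCR for both kinds of IP and 9 for SMI. A count is a cross-link site after removal of PCR duplicates, in windows that are 50 nt long and begin 20 nt apart, so a site enters up to 3 windows.

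The internal-exon counts of a library summed to between 1554590 and 2586392 for MDH2 IP, 1433429 and 1820830 for SMI, and 225859 and 523172 for IgG IP, so comparisons with IgG IP rest on fewer counts. Most internal-exon windows were sparse: 268895 (21.4%) held a single count over the 9 libraries, and 23863 held at least 10 counts in at least 3 libraries. The liver origin of the cells was visible in these windows. All 10 hepatocyte markers had internal-exon counts, and their sum (in CPM, the count per 1e6 TMM-scaled counts) ranged from 3458 to 4778 for MDH2 IP, 4191 to 5518 for SMI, and 1906 to 3889 for IgG IP. Of 12 markers of other cell types, 6 had internal-exon counts, with sums of 11.7 to 18.6 CPM for MDH2 IP, 9.86 to 14.6 for SMI, and 5.10 to 15.7 for IgG IP. Over all windows of the 9 libraries, EPCAM had 628 counts, PECAM1 538 and CD68 261. HBB, the beta chain of haemoglobin, was the only marker of the 12 with 0 counts in any window. In such bulk libraries fewer cells of a type and less RNA per cell cannot be told apart.

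Exons are joined by splicing, and introns are removed in the nucleus, so counts in internal exons come largely from spliced or partly spliced RNA of protein-coding genes, while intron counts come from unspliced RNA. RNA in the cytosol meets ribosomes along the coding sequence, and proteins such as splicing factors bind exons in the nucleus. UV light forms covalent bonds only at direct contacts between protein and RNA, and the reverse transcriptase tends to stop next to the bond, which marks the position.

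The sequences of a few coding regions are given before their values, to show what the windows with large differences look like. They were chosen after their values were seen, from genes whose internal-exon windows could be placed on the genome, and they are drawn from the coding strand of GRCh38, 5′ to 3′. Capitals mark the window with the most counts in the region, in MDH2 IP for enriched regions and in SMI for lower ones. Lower-case letters mark the rest of a run of overlapping windows called in the same direction. Windows at the end of an exon are shorter. Regions enriched in MDH2 IP over SMI lay in exon 8 of SRRM2, a splicing coactivator rich in serine and arginine (chr16:2766601-2766670, + strand), in exon 3 of ADRM1, a ubiquitin receptor of the proteasome (chr20:62303598-62303667, + strand), in exon 7 of RBM14, a coactivator with RNA recognition motifs (chr11:66625294-66625363, + strand), in exon 7 of SFPQ, a nuclear splicing and paraspeckle protein (chr1:35188053-35188090, - strand), in exon 5 of NUCKS1, a chromatin-associated phosphoprotein (chr1:205720581-205720630, - strand), and in exon 7 of SUGP2, a protein related to splicing factors (chr19:19010255-19010304, - strand):
SRRM2 exon 8: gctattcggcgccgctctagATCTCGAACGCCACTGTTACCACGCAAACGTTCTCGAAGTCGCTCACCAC
ADRM1 exon 3: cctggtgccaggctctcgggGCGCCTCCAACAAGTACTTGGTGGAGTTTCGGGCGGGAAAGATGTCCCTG
RBM14 exon 7: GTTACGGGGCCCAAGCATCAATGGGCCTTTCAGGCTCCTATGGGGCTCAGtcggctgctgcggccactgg
SFPQ exon 7: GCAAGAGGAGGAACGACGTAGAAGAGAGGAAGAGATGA
NUCKS1 exon 5: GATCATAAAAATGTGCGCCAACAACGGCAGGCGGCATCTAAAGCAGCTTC
SUGP2 exon 7: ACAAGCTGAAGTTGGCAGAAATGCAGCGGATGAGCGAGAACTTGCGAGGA

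Regions lower in MDH2 IP than in SMI lay in exon 4 of RPS12, a protein of the small ribosomal subunit (chr6:132816461-132816563, + strand), in exon 13 of EIF4G2, a translation initiation factor (chr11:10800093-10800182, - strand), in exon 3 of MBTPS2, the site-2 protease that cleaves SREBP proteins (chrX:21845311-21845360, + strand), and in exon 27 of APOB, the apolipoprotein of very-low-density and low-density lipoproteins (chr2:21009900-21009969, - strand):
RPS12 exon 4: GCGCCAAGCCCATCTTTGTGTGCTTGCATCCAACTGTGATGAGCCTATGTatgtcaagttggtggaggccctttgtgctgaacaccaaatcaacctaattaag
EIF4G2 exon 13: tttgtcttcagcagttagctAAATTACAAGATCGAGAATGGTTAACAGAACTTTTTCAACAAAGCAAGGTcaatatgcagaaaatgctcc
MBTPS2 exon 3: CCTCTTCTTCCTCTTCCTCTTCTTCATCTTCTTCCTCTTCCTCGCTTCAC
APOB exon 27: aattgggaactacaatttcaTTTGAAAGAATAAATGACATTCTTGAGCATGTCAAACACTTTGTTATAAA

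The SRRM2 window in capitals had 17, 12 and 12 counts in MDH2 IP, 2 in each SMI library, and 1, 3 and 0 in IgG IP (log2 fold change over SMI 2.53, SE 0.55, adjusted p = 0.0137 by edgeR). The SFPQ window had 36, 21 and 21 counts in MDH2 IP, 4, 7 and 11 in SMI and 3, 1 and 1 in IgG IP, a log2 fold change of 1.64. The NUCKS1 window had 31, 17 and 19 counts against 7, 5 and 7, with 3, 1 and 1 in IgG IP, a log2 fold change of 1.62. In each of these windows every MDH2 IP library held more counts than every SMI library, but they were chosen from called windows. The SRRM2 and NUCKS1 windows, like those of RBM14, ADRM1 and SUGP2, met the minimum of 10 counts in 3 libraries through MDH2 IP alone. They could therefore enter the test over SMI only with a difference, and their values are given as a description. The RBM14 window had 29, 17 and 25 counts in MDH2 IP, 6, 4 and 8 in SMI and 8, 6 and 8 in IgG IP, a log2 fold change of 1.80 against SMI and of -0.95 against IgG IP. For ADRM1 the counts were 23, 18 and 27 in MDH2 IP, against 7, 3 and 7 in SMI and 8, 2 and 5 in IgG IP (1.83 over SMI and -0.39 over IgG IP). The enriched coding windows were called on small margins: none of the 6 was called by DESeq2, and all 6 were called when library sizes were plain total counts. In fits without 1 library, the ADRM1 and NUCKS1 windows were called in 0 of the 3 fits in which they could be tested, RBM14 and SUGP2 in 1 of 3, SRRM2 in 2 of 3 and SFPQ in 3 of 6.

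Of the printed lower windows, that of RPS12 held 2, 5 and 8 counts in MDH2 IP against 47, 79 and 64 in SMI, with 6, 2 and 1 in IgG IP, a log2 fold change of -3.76 over SMI (SE 0.41, adjusted p = 4.9e-07 by edgeR). The MBTPS2 window, rich in pyrimidines, held 0, 0 and 3 counts in MDH2 IP against 15, 12 and 11 in SMI. The EIF4G2 window held 7, 3 and 5 counts against 14, 26 and 25, a log2 fold change of -2.25. In all 3 windows every MDH2 IP library lay below every SMI library, and each window met the minimum count through SMI alone. They could therefore enter the test only with a difference, and their values are given as a description. The same holds for their calls in other fits: these 3 windows were called in every fit without 1 library in which they could be tested, by DESeq2 and with total counts. The APOB window held 13, 12 and 6 counts in MDH2 IP against 24, 27 and 29 in SMI, with 6, 0 and 1 in IgG IP, a log2 fold change of -1.54 (SE 0.35, adjusted p = 0.00783 by edgeR). It was called by DESeq2 and in 5 of 6 fits without 1 library, but not with total counts. RPS12 has processed pseudogenes, and reads with up to 10 alignments were kept, so its counts can be shared with copies.

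Internal exons took a larger part of the counts in MDH2 IP than in either control. They held 27.3%, 29.9% and 26.4% of all counts in MDH2 IP, against 17.2%, 19.5% and 17.99% in SMI and 17.8%, 15.7% and 13.8% in IgG IP. The groups of MDH2 IP and SMI did not overlap, nor did those of MDH2 IP and IgG IP (exact two-sided permutation test over 3 against 3 libraries, p = 0.1 for both, the smallest that this design allows). IgG IP and SMI overlapped (exact permutation p = 0.2). The labels do not say that the libraries came from separate cultures, so p-values measure the spread between these libraries.

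The part of the gene against which internal exons were set made a difference. For each intron count there were 0.654, 0.838 and 0.656 internal-exon counts in MDH2 IP, 0.344, 0.436 and 0.370 in SMI and 0.322, 0.268 and 0.221 in IgG IP, without overlap between any pair of groups (exact permutation p = 0.1 each). For each last-exon count, which lie mostly in 3′ UTRs, there were 1.98, 2.06 and 1.81 in MDH2 IP and 1.45, 1.53 and 1.44 in SMI, again without overlap. In IgG IP this ratio was 1.84, 1.65 and 1.64, which overlapped MDH2 IP (exact permutation p = 0.2). Against the first exon the order turned, with 6.96, 6.43 and 6.01 internal-exon counts per first-exon count in MDH2 IP and 7.55, 7.88 and 8.15 in SMI, while IgG IP with 6.26, 6.01 and 5.47 overlapped MDH2 IP (exact permutation p = 0.3). First exons held 3.92% to 4.65% of all counts in MDH2 IP, 2.21% to 2.47% in SMI and 2.53% to 2.84% in IgG IP.

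**Figure D1:**
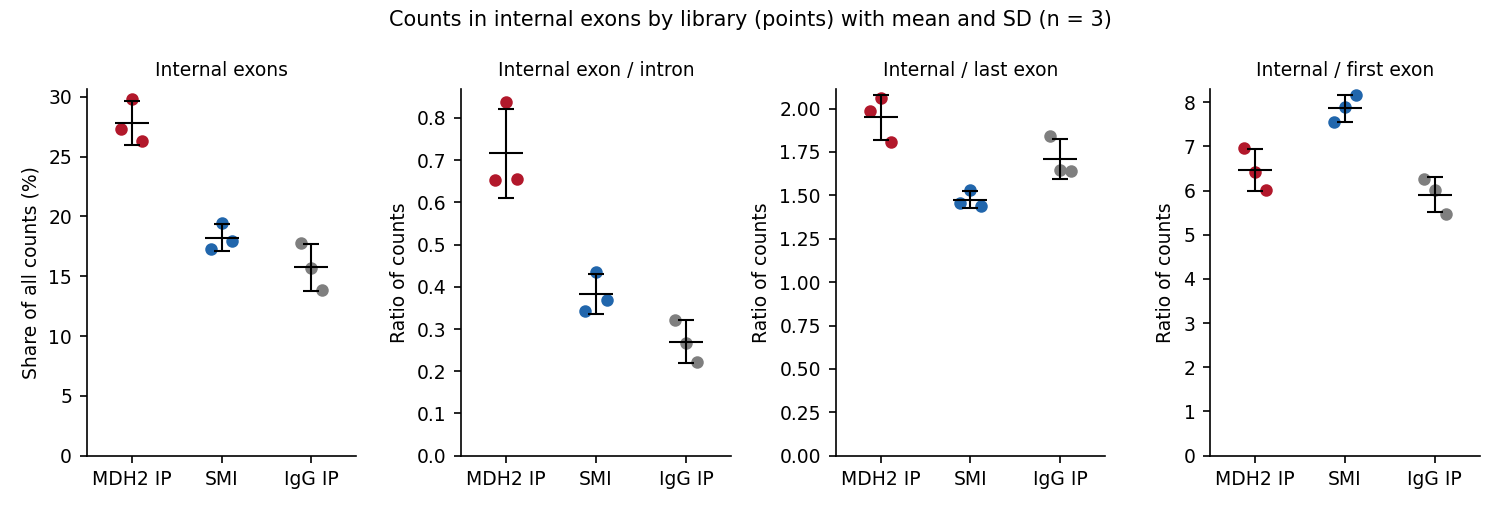
Counts in internal exons as a share of all counts (%) and as ratios to the counts in introns, the last exon and the first exon of the same genes, with 1 point per library and the mean and SD of 3 libraries per group. The 3 MDH2 IP points lie above all SMI points except for the ratio to the first exon, where they lie below, and they overlap IgG IP for the ratios to the last and to the first exon.

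The spread of counts along the gene differed by a few points between MDH2 IP and SMI. When the internal exons of a gene were split by relative position into 5 bins, the bin nearest the 5′ end held 13.3% to 13.5% of internal-exon counts in MDH2 IP, 11.9% to 12.2% in SMI and 14.8% to 15.7% in IgG IP, and the bin nearest the 3′ end held 22.3% to 22.7%, 23.8% to 23.9% and 21.6% to 22.1%. The MDH2 IP and SMI libraries did not overlap in either of these bins. The position of windows inside an exon could be read for the 3313 genes (27.3%) whose windows were placed on GRCh38. In these, the first window of an exon held 8.37%, 8.53% and 8.53% of internal-exon counts in MDH2 IP, against 8.20%, 8.43% and 8.46% in SMI (exact permutation p = 0.3), and this difference changed sign when only windows that do not overlap were used and when the 10 genes with the most SMI counts were left out. Windows that lie wholly in coding sequence held 66.2%, 68.3% and 66.2% of the internal-exon counts of placed genes in MDH2 IP, 68.3%, 70.8% and 69.6% in SMI and 60.8%, 51.7% and 50.2% in IgG IP. Internal UTR windows held 10.7% to 11.7%, 9.91% to 11.2% and 14.2% to 18.1%.

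Window by window, 23766 internal-exon windows of 1370 genes had enough counts for the test of MDH2 IP over SMI, and 674 (2.84%) were enriched, against 4.07% of all windows tested. A further 935 (3.93%) were lower, against 9.92% of all windows. The call rested on edgeR's quasi-likelihood test with TMM scaling and required a change of at least 1 on the log2 scale with an adjusted p no higher than 0.05. Both shares lay below those of the whole table, and the median log2 fold change was 0.14 in internal exons and 0.05 over all windows. By part of the gene, 7.51% of first-exon windows, 2.84% of internal-exon windows, 2.14% of last-exon windows and 12.3% of intron windows were enriched, and 2.03%, 3.93%, 8.15% and 25.2% were lower. The enriched windows formed 385 regions in 219 genes, of which 218 regions were 1 window and the longest 8. The lower windows formed 351 regions in 150 genes, the longest of 28 windows.

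These counts moved with the scaling and with single libraries. With plain total counts in place of TMM, which moved the median of all windows by 0.48, 4431 internal-exon windows were enriched and 217 lower, so the share of calls that were enriched went from 41.9% to 95.3%. DESeq2 called 234 enriched and 606 lower. Without MDH2 IP replicates 1, 2 and 3 in turn, 82, 319 and 380 windows were enriched, and without SMI replicates 1, 2 and 3, 118, 319 and 354. The numbers lower were 429, 677 and 714 without each MDH2 IP library and 422, 437 and 782 without each SMI library.

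The enriched windows with the largest differences had few SMI counts or none. In exon 13 of MASP1, a protease of the lectin pathway of complement made in liver, a window had 10, 23 and 17 counts in MDH2 IP and 0 in every SMI and IgG IP library, at least 6.06-fold higher than SMI when each SMI library is set to 3 counts. A window in exon 9 of ANO8, a membrane protein of the anoctamin family, had 17, 18 and 11 counts against 0 in SMI (at least 5.22-fold) and 9, 2 and 1 in IgG IP. A window in exon 2 of the magnesium transporter gene SLC41A1, in a UTR at chr1:205813028-205813077, had 14, 11 and 12 counts against 0 (at least 4.25-fold) and 5, 1 and 0 in IgG IP. These 3 windows met the minimum of 10 counts in 3 libraries through MDH2 IP alone, the group in which they are high, so they could enter the test only with a difference, and their values are given as a description.

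A further window in exon 16 of SLC12A8, a member of the cation-chloride cotransporter family, had 37, 37 and 32 counts in MDH2 IP, 0, 1 and 1 in SMI and 12, 3 and 10 in IgG IP, a ratio to SMI of 53.7 with a counting interval of 14.5 to 449.6. A KMT2D window in exon 12, of a histone H3 lysine methyltransferase gene, had 13, 10 and 10 counts against 1, 0 and 1, a ratio of 16.7 (4.28 to 144). A window in exon 5 of RAD9A, a subunit of the DNA damage checkpoint clamp, had 17, 15 and 10 counts against 0, 1 and 2, a ratio of 14.2 (4.54 to 71.6). The intervals cover counting error only. Over IgG IP the log2 fold changes of these 3 windows were -0.52, 0.13 and 0.47, and none was called. Windows in exon 18 of SEPTIN9, a cytoskeletal GTPase (44, 79 and 27 counts against 1, 3 and 2), and in exon 3 of EHBP1, which links endocytosis to actin (30, 12 and 14 against 0, 2 and 2), had log2 fold changes of 4.41 and 3.51 over SMI and 2.04 and -1.04 over IgG IP. The window in exon 3 of C12orf57 with 80, 64 and 59 counts in MDH2 IP against 6, 5 and 1 in SMI was also high in IgG IP (22, 10 and 18 counts), with log2 fold changes over SMI of 3.87 for MDH2 IP and 4.71 for IgG IP. In the test over SMI, every window named in this paragraph met the minimum count through MDH2 IP alone. The differences from SMI are therefore given as a description.

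Counted per gene, SRRM2, HSP90B1 and NCL held many of the enriched windows. SRRM2 held 30 enriched windows of 345 tested and 0 lower ones, in exons 4, 5, 7, 8, 9, 10 and 11: 7 of 250 in the long exon 8, 7 of 44 in exon 9 and 7 of 18 in exon 11. HSP90B1, which encodes the ER chaperone GRP94, held 26 of 121, with all 7 tested windows of exon 7 and all 5 of exon 15. NCL, which encodes the nucleolar protein nucleolin, held 17 of 91, with 5 of 8 in exon 2, 5 of 8 in exon 7 and 5 of 10 in exon 15. SPTBN1, a spectrin of the membrane skeleton, held 17 of 234, EIF4G1, the scaffold of the cap-binding complex, 12 of 178, HUWE1, a ubiquitin ligase, 11 of 276, NDUFV1, a subunit of respiratory complex I, 11 of 83, and SNRNP70, the U1 snRNP 70K protein, 11 of 70. The 10 genes with the most enriched windows held 22.997% of them. Leaving out 1 library gave between 2 (without MDH2 IP replicate 1) and 19 enriched windows in SRRM2, between 1 (without SMI replicate 1) and 66 in HSP90B1 and between 1 (without SMI replicate 1) and 22 in NCL. The lowest numbers were 1 in SPTBN1 and EIF4G1, 0 in NDUFV1 and 2 in SNRNP70, all without MDH2 IP replicate 1, and 0 in HUWE1 without SMI replicate 1.

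The lower windows were concentrated in fewer genes. APOB held 157 of them among 574 tested and 0 enriched ones, with 150 among the 378 windows of exon 27, which is the exon that holds the printed APOB region, and its windows had a median log2 fold change of -0.79 over SMI and 0.04 over IgG IP. Without APOB, 778 of 23192 internal-exon windows (3.35%) were lower. ARHGAP5, which encodes a GTPase-activating protein, held 65 of 184, of which 64 lay among 160 windows of exon 6, while 5 of 10 windows of its exon 4 were enriched. KDELR2, a receptor that returns proteins from the Golgi to the ER, held 43 of 77, of which 37 lay among 54 windows of exon 6. TAF1D, a subunit of the factor that recruits RNA polymerase I and a host of snoRNA genes, held 21 of 25. EIF4G2 held 25 of 111, and SLC39A14, a zinc and iron transporter of liver, held 21 of 142. The 10 genes with the most lower windows held 44.2% of them. Of the genes named here, APOB held 58 lower windows without MDH2 IP replicate 1 and 16 with total counts, ARHGAP5 held 20 without MDH2 IP replicate 1 and 10 with total counts, KDELR2 16 without SMI replicate 1 and 19 with total counts, TAF1D 7 without SMI replicate 1, and EIF4G2 13 without SMI replicate 1 and 5 with total counts.

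Genes of cytosolic ribosomal proteins stood out among the lower windows. Of 951 tested internal-exon windows of 55 such genes, 283 (29.8%) in 43 genes were lower in MDH2 IP than in SMI and 4 were enriched, with a median log2 fold change of -0.75. In the other genes 652 of 22815 windows (2.86%) were lower, with a median of 0.16. RPSA held 27 lower windows of 41, RPS4X 19 of 38, RPL30 17 of 28 and RPS12 15 of 17. The window in exon 3 of RPSA with the largest fall had 5, 11 and 7 counts in MDH2 IP, 81, 101 and 92 in SMI and 2, 1 and 3 in IgG IP (log2 fold change over SMI -3.70), and one in exon 2 of RPL27A had 1, 0 and 0 counts against 18, 23 and 11. In IgG IP over SMI, 98 of 864 windows of these genes were lower, with a median of -0.93, and in MDH2 IP over IgG IP 2 of 707 were lower and the median was 0.38. These 3 comparisons share libraries, and the genes have many processed pseudogenes with which counts can be shared. With total counts 83 windows of ribosomal protein genes were lower, without MDH2 IP replicate 1 138 were, and DESeq2 called 209.

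Other low windows lay in EIF4A1, the helicase of translation initiation, where a window of exon 5 had 15, 8 and 6 counts in MDH2 IP, 109, 121 and 121 in SMI and 1, 0 and 0 in IgG IP (log2 fold change over SMI -3.77, SE 0.31), and in TAF1D, where a window of exon 6 had 0, 3 and 1 counts against 35, 42 and 37 (-4.87). In ATXN7L2 a window of exon 3 had 3, 2 and 1 counts against 25, 53 and 30 (-4.24). Windows with 2 counts in all over the MDH2 IP libraries lay in exon 4 of RPL21 (15, 15 and 19 counts in SMI), exon 24 of UBAP2L, which encodes a ubiquitin-associated protein of stress granules (17, 14 and 18), and exon 2 of GPT2, the mitochondrial alanine aminotransferase (10, 15 and 15). SMI was 24.2 times as high in the RPL21 window, with a counting interval of 6.34 to 205. These genes were named for the lowest log2 fold changes, after their values were seen. The windows of TAF1D, ATXN7L2, RPL21, UBAP2L and GPT2 met the minimum count through SMI alone, as did that of RPL27A, so their values are a description. Genes that hold a snoRNA or scaRNA gene, as TAF1D does, had 265 lower windows of 2010 (13.2%), and the other genes 670 of 21756 (3.08%). Of the placed windows that overlap a small RNA gene, 14 of 49 were lower, and of the other placed windows 435 of 5191 (8.38%). The part of such RNAs in these counts was not tested.

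Over IgG IP, 3 of 14113 internal-exon windows were enriched in MDH2 IP, against 0.148% of all windows tested, and 202 were lower, against 4.77%. At an unadjusted one-sided p below 0.05, 1805 internal-exon windows were higher, and DESeq2 called 0. The 3 windows overlap each other in exon 3 of RSPRY1 (chr16:57186137-57240469 for the gene), which encodes a protein with RING and SPRY domains. They held 59, 56 and 55, 59, 56 and 56, and 56, 56 and 56 counts in the MDH2 IP libraries. In SMI they held 1, 1 and 3, 1, 4 and 1, and 2, 3 and 1, and in IgG IP 0, 0 and 2 in each. The log2 fold change of the leading window was 4.85 over SMI (SE 0.46, edgeR adjusted p = 1.98e-07). Over IgG IP, where all 3 libraries held 2 counts in sum, the ratio was 18.3 with a counting interval of 4.98 to 152 (edgeR adjusted p = 0.0251). The MDH2 IP counts of this site hardly differed between libraries whose internal-exon totals ranged from 1554590 to 2586392. The 3 windows met the minimum count through MDH2 IP alone in both comparisons. They could therefore enter either test only with a difference, and their values are given as a description. The 3 windows stayed called over IgG IP without IgG IP replicate 3 and were lost without IgG IP replicate 1 or 2. Over all internal-exon windows 2 were enriched without IgG IP replicate 1 and 0 without replicate 2 or without any of the MDH2 IP libraries, while 1196 windows were enriched with total counts, which moved the median of all windows by 0.79.

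The windows lower in MDH2 IP than in IgG IP were led by IGF2, the gene of insulin-like growth factor 2, a fetal growth factor that many hepatoma cells make. All 54 tested internal-exon windows of IGF2 were lower, with log2 fold changes between -3.51 and -1.66. Summed over its internal exons, IGF2 had 143, 162 and 147 CPM in MDH2 IP, 113, 105 and 104 in SMI and 618, 806 and 583 in IgG IP, so the IgG IP libraries lay far above both others. The log2 fold change was 2.69 for IgG IP over SMI, -2.07 for MDH2 IP over IgG IP and 0.48 for MDH2 IP over SMI (edgeR adjusted p = 2.25e-06, 0.00011 and 0.0329). ARHGAP5 held a further 16 lower windows of 78, and RBM14, shown above for an enriched window over SMI, 15 of 57, but 0 of these RBM14 windows were called without MDH2 IP replicate 1 or with total counts. Without IGF2, 148 windows were lower than in IgG IP. The 202 became 94, 105 and 109 without MDH2 IP replicates 1, 2 and 3, and 218, 139 and 155 without IgG IP replicates 1, 2 and 3. With total counts 83 were lower.

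IgG IP itself differed from SMI in internal exons. Of 11053 windows, 329 were enriched in IgG IP, against 6.17% of all windows, and 236 were lower, against 6.36%. IGF2 held 44 enriched windows of 44, SRRM2 28 of 98 and SNRNP70 22 of 26, and 10 genes held 52.3% of the enriched windows. EEF1A1, the elongation factor that brings tRNA to the ribosome, held 20 lower windows of 53, RPSA 12 of 40, and FTL, the ferritin light chain with processed pseudogenes, 10 of 11. Both IPs are set against the same SMI libraries. With total counts 193 windows were enriched and 1250 lower in IgG IP. The 329 became 165, 153 and 166 without SMI replicates 1, 2 and 3 and 197 without IgG IP replicate 1, and the 236 became 95, 84 and 152 and, without IgG IP replicate 1, 139.

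The share of tested windows enriched over SMI was set out along the gene. In the bin nearest the 5′ end 4.42% of 2692 internal-exon windows were enriched and 0.706% lower, with a median log2 fold change of 0.28, and in the bin nearest the 3′ end 2.61% of 5595 were enriched and 6.90% lower, with a median of 0.08. The placed windows were not like the whole set: of 5240 tested, 1.83% were enriched and 8.57% lower, against 2.84% and 3.93% of all internal-exon windows. Of the placed windows, 4125 lay in coding sequence, of which 32 were enriched and 375 lower, 218 of the latter outside APOB. Of 369 windows in internal UTR exons 35 were enriched and 17 lower, and of 159 in exons of non-coding transcripts of these genes 19 and 14. UTR and non-coding windows were also those that differed between the IPs: 15 of 222 UTR windows, 15 of 100 non-coding windows and 15 of 2604 coding windows were lower in MDH2 IP than in IgG IP. The coding windows enriched over SMI, from 13 genes, had a median GC content of 60%, those lower 42% (44% without APOB) and those called in neither direction 52%. Their median purine content was 55.5% (63% without SRRM2), 54% and 52%.

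Counts were then summed over the internal exons of each gene, which gives more counts to each test. Of 9653 genes, 1387 (14.4%) were higher over SMI in MDH2 IP, against 11.9% of all gene parts, and 244 (2.53%) were lower, against 18.1%, at an edgeR adjusted p of at most 0.05. The median log2 fold change of internal exons was 0.24. It was 0.82 for first exons, of which 26.2% were higher and 0.217% lower, -0.10 for last exons, of which 9.28% were higher and 15.3% lower, and -0.57 for introns, of which 6.69% were higher and 39.6% lower. Over IgG IP, 928 of 8845 genes (10.5%) were higher, against 4.4% of all parts, and 104 (1.18%) lower, against 9.56%. Here the medians were 0.57 for internal exons, 0.56 for first exons, 0.48 for last exons and -0.61 for introns. Of IgG IP over SMI, 604 of 8852 genes (6.82%) were higher, against 11.5%, and 432 (4.88%) lower, against 7.13%, with a median of -0.24.

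The number of genes called also moved with the libraries and the scaling. For MDH2 IP over SMI, 618 genes were higher without SMI replicate 1 and 923 without MDH2 IP replicate 1, and the other fits gave 1074 to 1473. The number lower was 100 and 160 without MDH2 IP replicates 1 and 2, and 120 and 142 without SMI replicates 1 and 2. Over IgG IP, 243 and 418 genes were higher without MDH2 IP replicates 1 and 2, 547 and 613 without IgG IP replicates 2 and 3, and 21, 34 and 53 were lower without MDH2 IP replicates 1, 2 and 3. For IgG IP over SMI, 289 and 400 were higher without SMI replicates 1 and 2, and 144, 136 and 199 lower without SMI replicates 1, 2 and 3. With total counts, which moved the median of all gene parts by 0.30, 0.33 and -0.17, the higher and lower numbers were 2989 and 73, 2424 and 49, and 454 and 812.

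**Figure D2:**
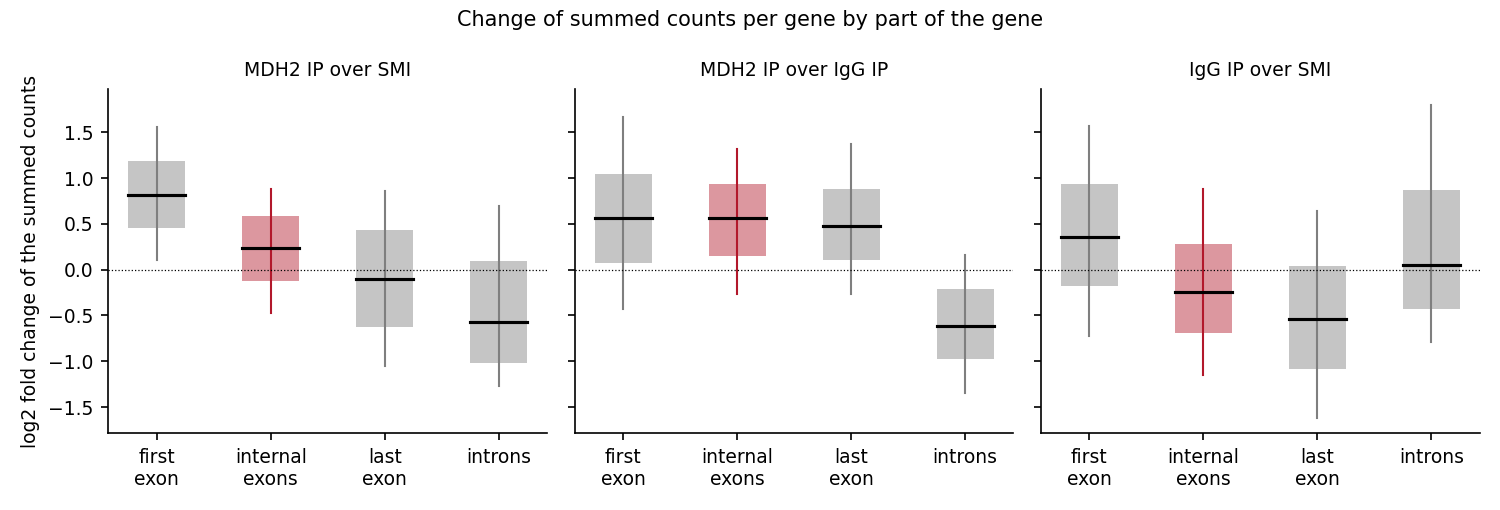
Log2 fold change of counts summed per gene over the first exon, the internal exons, the last exon and the introns, in the 3 comparisons of groups. Boxes span the 25th to the 75th percentile of the tested genes with a bar at the median, and lines span the 10th to the 90th; internal exons lie between first and last exons over SMI, with a median of 0.24, and beside them over IgG IP, with 0.57.

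The internal-exon change followed the GC content of the transcript. Genes were split into 5 equal groups by the GC content of the whole transcript. From the lowest to the highest group, the share of genes higher in MDH2 IP than in SMI went from 3.15% to 33.9% and the share lower from 6.66% to 0.053%, and the median log2 fold change was -0.10, 0.02, 0.18, 0.43 and 0.63. Over IgG IP the order turned, with medians of 0.71, 0.74, 0.65, 0.49 and 0.23, and in IgG IP over SMI it rose from -0.67 to -0.56, -0.32, 0.06 and 0.57. Across genes the rank correlation of GC content with the log2 fold change was 0.52 for MDH2 IP over SMI (9522 genes), -0.30 with IgG IP in place of SMI (8729), and for IgG IP over SMI it was 0.58 (8738). Genes are not independent replicates, and the comparisons share libraries.

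The ratio of internal-exon to intron counts was therefore taken within each GC group. Internal-exon counts per intron count were 0.557, 0.709, 0.710, 0.798 and 0.818 in MDH2 IP from the lowest to the highest GC group (means of 3 libraries), 0.266, 0.340, 0.343, 0.497 and 0.680 in SMI, and 0.222, 0.255, 0.263, 0.284 and 0.311 in IgG IP. In the 4 lower groups every MDH2 IP library lay above every SMI library, and in the highest group they overlapped, with 0.729 to 0.972 in MDH2 IP and 0.629 to 0.765 in SMI. The highest GC group held 22.7% of internal-exon counts in MDH2 IP, against 18.1% in SMI and 29.5% in IgG IP. Of the genes with more than 20 exon numbers 23.7% were higher over SMI and 23.8% over IgG IP. The share called also rose with the counts of a gene. Of genes with fewer than 200 internal-exon counts over the 9 libraries 2.39% were higher over SMI and 1.83% over IgG IP. With 2000 counts or more the shares were 37.2% and 29.3%. Exon number and counts were not separated.

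**Figure D3:**
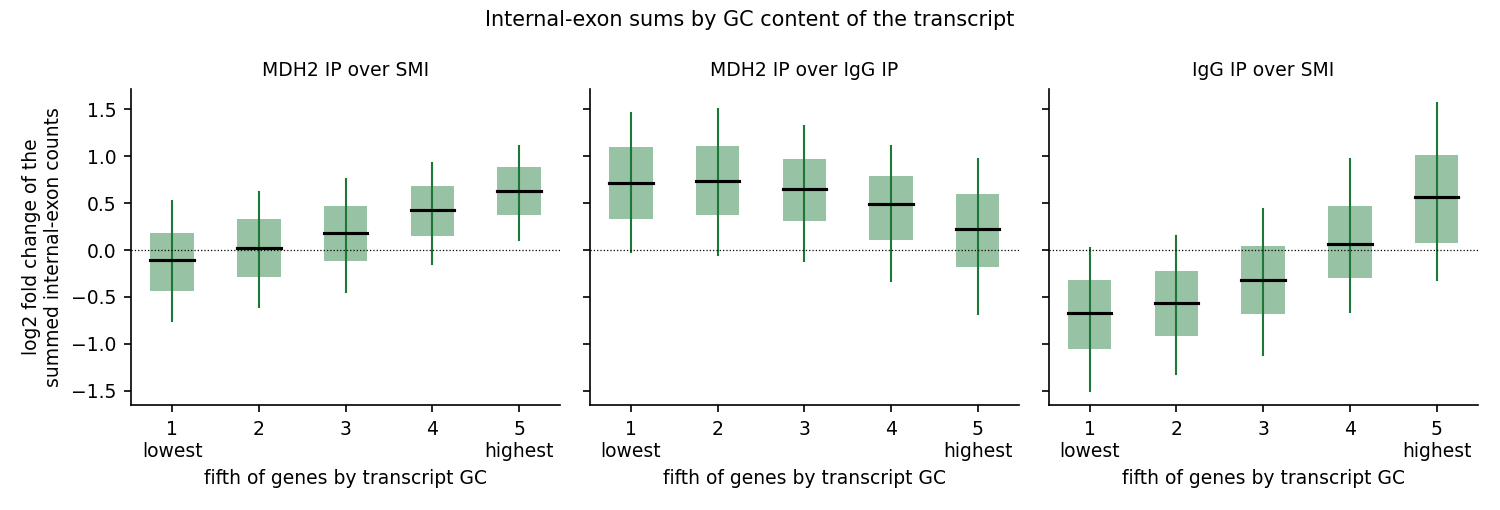
Log2 fold change of internal-exon sums in 5 equal groups of genes by transcript GC content, in the 3 comparisons, with boxes from the 25th to the 75th percentile, bars at the median and lines from the 10th to the 90th percentile. The median rises with GC over SMI for both IPs, from -0.10 to 0.63 and from -0.67 to 0.57, and falls for MDH2 IP over IgG IP from 0.71 to 0.23.

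Single genes are given next, first those with most MDH2 IP counts in enriched windows. HSP90B1 had 868, 1117 and 411 CPM in MDH2 IP, 312, 498 and 216 in SMI and 387, 403 and 180 in IgG IP over its internal exons. The MDH2 IP library of replicate 3 lay below the SMI library of replicate 2, so the groups overlapped, and the log2 fold change was 1.22 over SMI (SE 0.35, edgeR adjusted p = 0.0233) and 1.38 over IgG IP. NCL had 345, 302 and 347 CPM in MDH2 IP, 132, 147 and 202 in SMI and 187, 189 and 194 in IgG IP, so MDH2 IP lay above both controls without overlap, with log2 fold changes of 1.04 over SMI (SE 0.18, edgeR adjusted p = 0.002) and 0.89 over IgG IP. SRRM2 had 944, 1156 and 834 CPM in MDH2 IP, 476, 616 and 524 in SMI and 895, 1150.5 and 768 in IgG IP. Both IPs of SRRM2 lay above SMI, by 0.85 each on the log2 scale, and the difference between the IPs was 0.14 (edgeR adjusted p = 0.699). HSP90AB1, a cytosolic HSP90 chaperone with processed pseudogenes, had 565, 478 and 517 CPM in MDH2 IP, 291, 299 and 333 in SMI and 366, 185 and 262 in IgG IP (0.75 over SMI and 1.02 over IgG IP). CLU, the secreted chaperone clusterin, had 415, 547 and 341 CPM in MDH2 IP, 220, 300 and 185 in SMI and 263, 233 and 101 in IgG IP (0.88 and 1.2). HSP90AB1 and CLU were above both controls in every MDH2 IP library.

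PABPC1, the poly(A)-binding protein of the cytosol, did not differ detectably over SMI in its internal exons, with 236, 292 and 255 CPM in MDH2 IP and 225, 306 and 255 in SMI (log2 fold change -0.01, SE 0.17), a value that turned to 0.02 by DESeq2 and 0.29 with total counts. With 166, 177 and 89.9 CPM in IgG IP it lay below MDH2 IP, by 0.93 on the log2 scale (edgeR adjusted p = 0.0285). EEF2, which moves the ribosome along the mRNA, had 551, 782 and 537 CPM in MDH2 IP, 688, 1009 and 507 in SMI and 629, 351 and 328 in IgG IP, and neither difference passed the test (-0.25 over SMI, which became 0.06 with total counts, and 0.59 over IgG IP). For MDH2 itself, whose protein was precipitated, internal exons had 48.2, 49.5 and 49.5 CPM in MDH2 IP, 43.3, 46.8 and 42.6 in SMI and 35.9, 26.1 and 29.5 in IgG IP. MDH2 lay 0.14 above SMI (SE 0.16, edgeR adjusted p = 0.543) and 0.76 above IgG IP (SE 0.23, adjusted p = 0.0465).

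The largest rises over SMI were in genes with few counts. Internal exons of PRSS36, a serine protease gene, had 54, 34 and 24 counts in MDH2 IP, 0 in SMI and 3, 0 and 0 in IgG IP, at least 12.2-fold higher than SMI against 3 counts per library. This sum met the minimum count through MDH2 IP alone. It could enter the test only with a difference, so its values are given as a description. GOLGA8A and NBPF14, members of duplicated gene families whose counts can be shared with copies, rose by 2.998 and 2.42 over SMI, and over IgG IP they had -0.55 and -0.09. SLC41A1 rose by 2.58 over SMI, with 9.54, 11.3 and 15.1 CPM against 2.02, 2.53 and 1.38, and by 2.68 in IgG IP over SMI. HS6ST2, a heparan sulfate sulfotransferase, rose by 2.42. The largest falls were in RPL39 (-2.71), GNPDA2, a glucosamine-6-phosphate deaminase (-1.99), RRAGD, a Rag GTPase that signals amino acids to mTORC1 (-1.80), RPL21 (-1.73) and ZDHHC2, a palmitoyltransferase (-1.70). RPL21 had 18.3, 26.7 and 22.9 CPM in MDH2 IP, 66.7, 82.2 and 74.5 in SMI and 24.7, 22.3 and 11.8 in IgG IP, so both IPs lay below SMI.

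The genes with the lowest adjusted p over IgG IP, named after their values were seen, also passed the test over SMI, with the same MDH2 IP libraries. CCDC141, a coiled-coil protein, had 47.8, 44.02 and 43.4 CPM in MDH2 IP, 14.03, 16.1 and 18.4 in SMI and 7.11, 10.8 and 11.8 in IgG IP, and rose by 2.31 over IgG IP (SE 0.29, edgeR adjusted p = 0.000364) and by 1.47 over SMI. VPS13B, a lipid transfer protein, had 91.2, 101 and 80.6 CPM in MDH2 IP, 25.5, 39.3 and 35.2 in SMI and 33.7, 29.3 and 27.3 in IgG IP (1.67 and 1.44). ABCC2, the transporter that exports conjugated bilirubin into bile, had 212, 241 and 172 CPM in MDH2 IP, 82.1, 100 and 83.9 in SMI and 74.1, 79.7 and 71.5 in IgG IP (1.55 and 1.22). In these 3 genes every MDH2 IP library lay above every library of both controls. BTAF1, a TBP-associated ATPase, DNAH6, an axonemal dynein heavy chain, PRPF4B, a kinase of the spliceosome, ATM, the DNA damage kinase, and CFAP44, a cilia and flagella protein, rose by 1.95, 2.63, 1.86, 1.80 and 2.20 over IgG IP and by 1.10, 1.75, 0.92, 0.81 and 1.34 over SMI. Their introns had log2 fold changes over IgG IP of -0.14, -0.44, 0.07, 0.34 and 0.06.

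**Figure D4:**
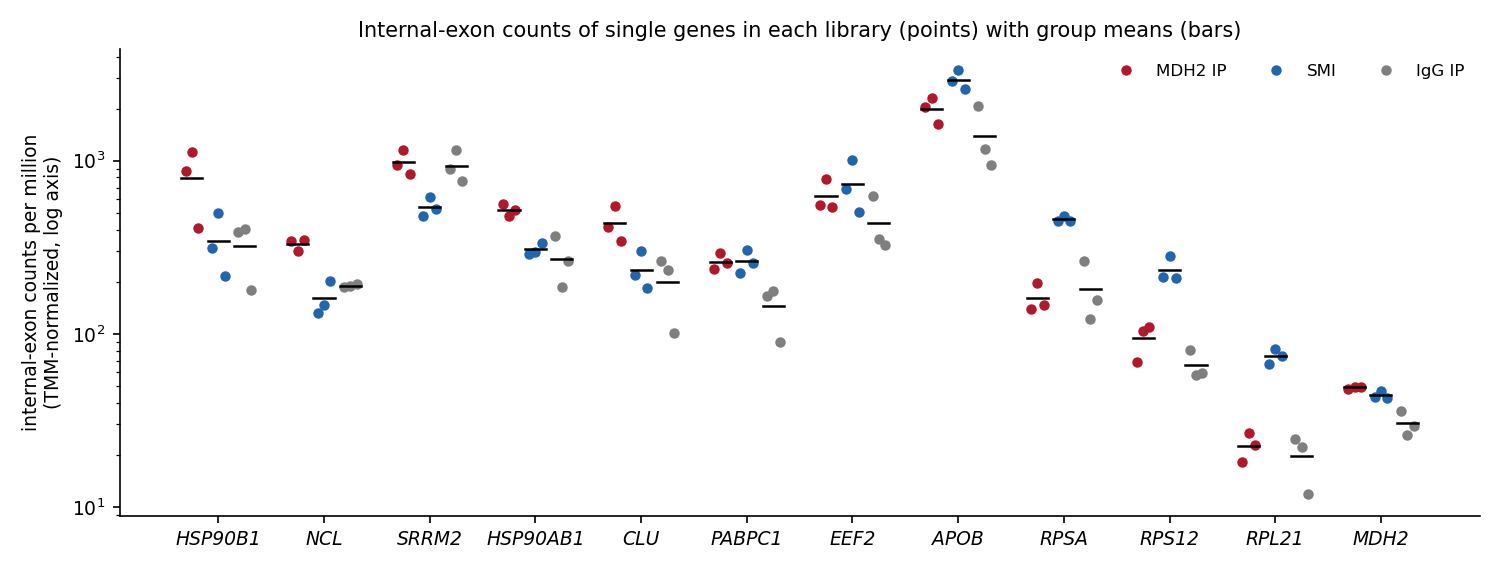
Internal-exon level in CPM (log axis, TMM-normalized) of 12 genes in each library, as points, with bars at the group means. HSP90B1, NCL, HSP90AB1 and CLU have a higher mean in MDH2 IP than in both controls, SRRM2 is high in both IPs, RPSA, RPS12 and RPL21 are high in SMI, and APOB is highest in SMI.

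Gene lists were described by counts and medians, beside the median of all internal-exon sums, 0.24 over SMI and 0.57 over IgG IP. Of all internal-exon sums, 14.4% were higher and 2.53% lower over SMI, and 10.5% and 1.18% over IgG IP. Plasma proteins, translation factors, synthetases, cholesterol synthesis genes, vesicle coats and DNA replication proteins had higher members over SMI at about the share of all sums. Of the cytosolic ribosomal proteins, 27 of 56 were lower in MDH2 IP than in SMI and 0 higher, with a median of -0.60 (15 without MDH2 IP replicate 1 and 19 to 29 without any other library, and 13 with total counts). The most counted were RPSA (139, 197 and 146 CPM in MDH2 IP, 451, 481 and 448 in SMI, 263, 122 and 158 in IgG IP; -1.53 over SMI), RPL4 (-0.32, not called) and RPS12 (68.9, 104 and 109 CPM, against 213, 282 and 210 in SMI; -1.33). Over IgG IP 17 of 55 were higher and 0 lower, with a median of 0.63, and in IgG IP over SMI 36 of 55 were lower, with a median of -1.07. The 17 became 7 and 10 without MDH2 IP replicates 1 and 2, and 7 and 9 without IgG IP replicates 2 and 3.

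Of 39 translation initiation and elongation factors, 7 were higher and 5 lower, with a median of 0.08. Those higher included EIF2S2, a subunit of eIF2 (1.22), EIF4G1 (0.86) and EIF3G (0.76), those lower were EIF3E (-0.70), EIF3L (-0.68), EIF3M (-0.58), EEF1G (-0.56) and EIF4G2 (-0.51), and with total counts 12 were higher and 0 lower. The 5 became 1 without replicate 1 or 2 of either MDH2 IP or SMI, and 2 without MDH2 IP replicate 3, and the 7 became 3 without SMI replicate 1. EEF1A1, EEF2 and EIF4A1, with the most SMI counts, had -0.60, -0.25 and -0.28 and were not called, and the last became 0.03 with total counts. Over IgG IP 15 of 39 were higher and 0 lower (5 to 7 higher without MDH2 IP replicate 1 or 2 or IgG IP replicate 2 or 3), with a median of 0.76, among them EIF2S2 (1.69), EIF2S3 (1.40) and EIF4G3 (1.39). Of 35 aminoacyl-tRNA synthetases and their partners, AIMP1, FARSA, SARS2, CARS2 and AARS2 were higher over SMI, by 0.86 to 0.99, and EEF1E1 was lower (-0.87), with a median of 0.21. The synthetases higher over IgG IP were others, IARS1 (0.99), RARS1 (1.01), EPRS1 (1.10) and LARS1 (1.16), and the difference between the comparisons was not tested. The number higher over IgG IP was 0 without MDH2 IP replicate 1, 2 without MDH2 IP replicate 2 and without either of IgG IP replicates 2 and 3, 8 without MDH2 IP replicate 3 and 12 without IgG IP replicate 1, and over SMI it was 10 without MDH2 IP replicate 3. AARS1, MARS1 and IARS1, the most counted, had 0.94, 0.58 and 0.28 over SMI and did not pass the test.

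Cytoskeleton and motor proteins had the highest median of the lists over SMI, 0.51, with 15 of 30 higher and 0 lower (7 without SMI replicate 1 and 11 to 13 without any other library). PLEC, a linker of intermediate filaments (1.07), DST, a spectraplakin (0.91), MYH10, a non-muscle myosin (0.87), SPTAN1 and MACF1 (0.82 each) led. SPTBN1 had 731, 812 and 481 CPM in MDH2 IP, 408, 421 and 328 in SMI and 685, 351 and 324 in IgG IP, and rose by 0.80 over SMI but was not called over IgG IP (0.65). DYNC1H1, the heavy chain of cytoplasmic dynein, had 597, 609 and 465 CPM against 344, 375 and 307 in SMI and 408, 294 and 244 in IgG IP, and rose over both, by 0.69 and 0.90. ACTB, with pseudogene copies, had 0.29 over SMI and was not called. Over IgG IP 9 of 30 were higher, with a median of 0.72, and this number was 2 without IgG IP replicate 2, 3 without IgG IP replicate 3 or MDH2 IP replicate 1, and 21 without IgG IP replicate 1.

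Of 33 hnRNP and SR proteins, which package and splice pre-mRNA, 11 were higher over SMI and 1 lower, with a median of 0.41. HNRNPA3 (1.34), HNRNPDL (0.87) and HNRNPA2B1 (0.85) led, and PCBP2 fell (-0.47). The 11 became 5 without SMI replicate 1. HNRNPH1 and PTBP1, also among the most counted, had 0.41 (not called) and 0.47. Over IgG IP 7 were higher, among them SRSF11 (1.26) and SRSF7 (1.07), and SYNCRIP was lower (-0.87), with a median of 0.50. The 7 became 1 and 4 without MDH2 IP replicates 1 and 2 and 3 without IgG IP replicate 2 or 3, and 1 member was lower without IgG IP replicate 1 and 0 in the other fits without 1 library. In IgG IP over SMI, HNRNPA3 and SYNCRIP were higher by 1.45 and 1.22.

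Of 24 tested genes of secreted plasma proteins, the main products of hepatocytes, APOE (1.00), CLU (0.88), APOA1 (0.58) and RBP4, the retinol carrier (0.51), were higher over SMI, APOB was lower, and the median was 0.30. APOB had 2049.6, 2304 and 1632 CPM in MDH2 IP, 2891, 3323 and 2591 in SMI and 2072, 1163 and 945 in IgG IP, so every MDH2 IP library lay below every SMI library (log2 fold change -0.57, SE 0.17, edgeR adjusted p = 0.0301). AFP and ALB, the fetal and the adult albumin, had 0.20 and 0.04 over SMI and were not called, and over IgG IP they rose by 0.99 and 0.96. Over IgG IP 8 of 24 were higher and 0 lower, with a median of 0.81. Over SMI 0 were higher without SMI replicate 1, 1 without SMI replicate 3 and 2 without MDH2 IP replicate 2, APOB was lower only without MDH2 IP replicate 2 or SMI replicate 3, and with total counts 11 were higher and 0 lower. Over IgG IP 2 were higher without MDH2 IP replicate 2 or IgG IP replicate 2.

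The list that holds MDH2, that of the TCA cycle and the malate-aspartate shuttle, had higher members at about the share of all internal-exon sums, 14.4% over SMI and 10.5% over IgG IP. Of 29 members of the TCA cycle and the malate-aspartate shuttle, SDHA, a subunit of succinate dehydrogenase (0.71), PC, pyruvate carboxylase (0.69), IDH3B (0.64) and OGDH (0.52) were higher over SMI and SDHD was lower (-1.07), with a median of 0.09. The 4 became 2 without SMI replicate 1 or 2, and 1 member was lower without MDH2 IP replicate 2 and 0 in the other fits without 1 library. PC had 318, 394 and 295 CPM in MDH2 IP, 216, 219 and 187 in SMI and 371, 276 and 229 in IgG IP, so it overlapped IgG IP. IDH1, not called, had 0.44. Over IgG IP, GOT1, the cytosolic aspartate aminotransferase of the shuttle (1.5), IDH3B (0.76) and MDH2 were higher and 0 lower, with a median of 0.74. All 3 of these calls, MDH2 included, were lost without MDH2 IP replicate 1 or 2 or IgG IP replicate 2, and 10 members were higher without IgG IP replicate 1, the only fit without 1 library in which MDH2 passed the test. Of 14 glycolytic enzymes ALDOC (1.18), PFKL (1.06), TPI1 (0.66) and HK2 (0.61) were higher over SMI, with a median of 0.45, while PFKL was lower over IgG IP (-0.86) and higher in IgG IP over SMI (2.07). GAPDH, ENO1 and PKM, the most counted, had -0.29 (0.02 with total counts), 0.24 and 0.47 and were not called. Of 49 nuclear-encoded subunits of the respiratory chain 4 were higher over SMI, among them NDUFV1 (0.85), COX4I1 (0.76) and NDUFS8 (0.49), with a median of 0.02, and ATP5F1B had 0.08. NDUFV1 had 331, 341 and 324 CPM in MDH2 IP, 190, 200 and 158 in SMI and 224, 203 and 269 in IgG IP.

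Among the remaining lists, HSP90B1 alone of 23 ER chaperones and disulfide isomerases was higher over SMI (median 0.31), and HSP90B1, CALR (1.11), UGGT1 (0.94) and CANX (0.88) were higher over IgG IP (median 0.73). These 4 became 0 without MDH2 IP replicate 1 or 2 or IgG IP replicate 3, 2 without IgG IP replicate 2 and 10 without MDH2 IP replicate 3. P4HB had 0.47 over SMI and was not called. Of 29 cytosolic chaperones, HSP90AB1 and CDC37 (0.87), a kinase cochaperone, were higher over SMI (median 0.17), HSPA8 and HSP90AA1 had 0.05 and 0.93 and were not called, and over IgG IP 6 were higher and DNAJB6 lower (-0.95). These 6 became 0 without MDH2 IP replicate 1 or IgG IP replicate 2, 2 without MDH2 IP replicate 2, and 13 and 3 without IgG IP replicates 1 and 3, and 0 members were lower without MDH2 IP replicate 1 or 2. Of 25 cholesterol synthesis genes, SREBF1, the transcription factor SREBP1 (0.97), MVD (0.89) and FDPS (0.76) were higher over SMI and 0 members over IgG IP (7 without IgG IP replicate 1), and HMGCS1 and EBP had 0.23 and 0.30. In IgG IP over SMI, which shares the SMI libraries, SREBF1, MVD and FDPS rose by 1.02, 1.35 and 1.03. SREBF1 had 254, 283 and 243 CPM in MDH2 IP, 134, 128 and 133 in SMI and 255, 250 and 272 in IgG IP. Of 28 proteasome subunits PSMC3 (0.84) and PSMD4 (0.59) were higher over SMI (median 0.08), and PSMD2, PSMD3 and PSMD1 had 0.43, 0.26 and 0.32. Of 23 vesicle coat proteins SEC16A (0.76), SEC24C (0.65), ARF1 (0.61) and COPE (0.59) were higher (median 0.11), and SEC31A and COPA had 0.16 and 0.30. Of 25 DNA replication proteins POLA1 (1.2), POLD1 and POLE (0.90 each) and MCM7 (0.75) were higher (median 0.35), and TOP2A and MCM3 had 0.35 and 0.41. The last 3 lists had 0 lower members over SMI. Of all internal-exon sums 14.4% were higher over SMI, and vesicle coats and DNA replication proteins lay near this share. In all the lists of this paragraph 5 or fewer members were called over SMI in every fit without 1 library.

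**Figure D5:**
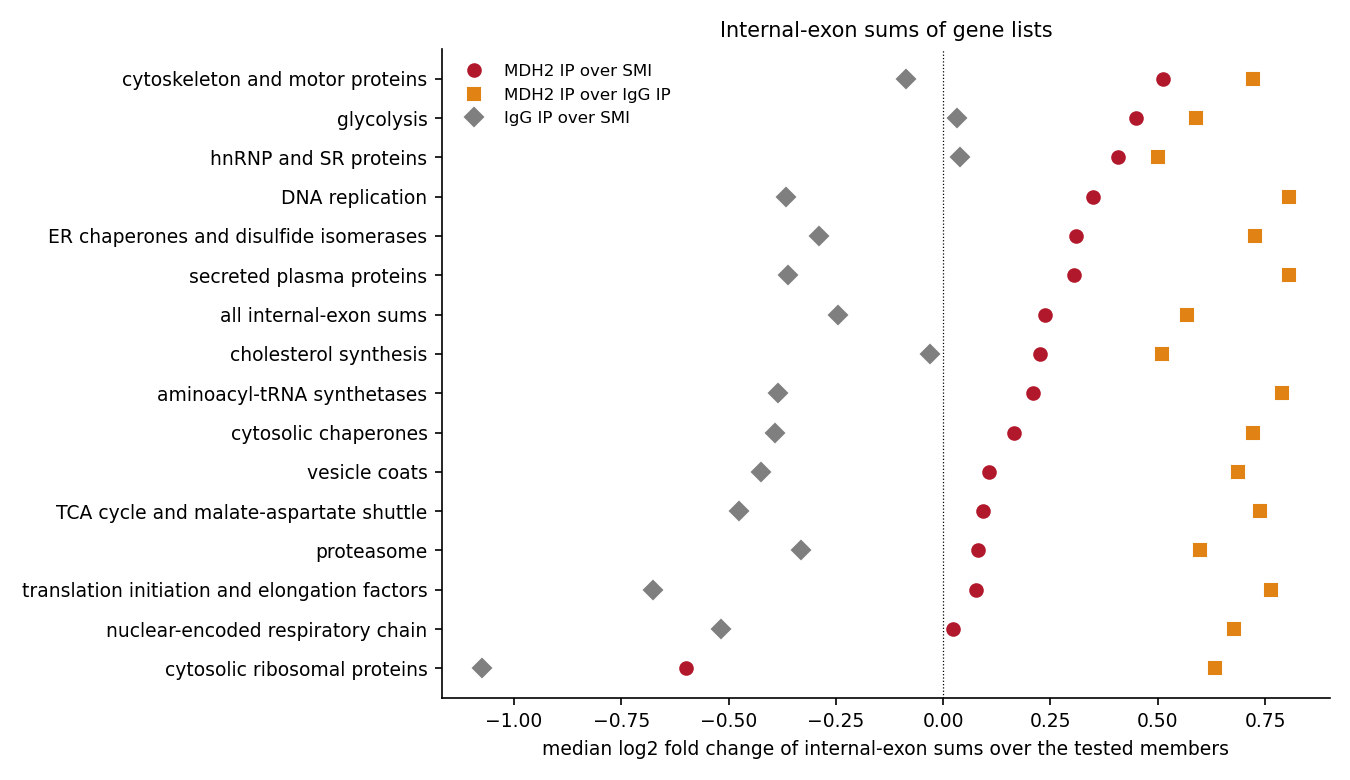
Median log2 fold change of internal-exon sums over the tested members of 15 gene lists and over all genes, for MDH2 IP over SMI (circles), MDH2 IP over IgG IP (squares) and IgG IP over SMI (diamonds). Ribosomal proteins have the lowest medians over SMI for both IPs, -0.60 and -1.07, while over IgG IP their median of 0.63 lies near that of all genes, 0.57.

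The last comparison set internal exons against the other exons of the same gene, so that a change of the whole mRNA cancels. By edgeR's test of parts against the change of the whole gene, internal exons lay above the other exons in 25 of 8347 genes and below in 1 for MDH2 IP over SMI, against 1.63% and 0.316% of all exon parts. Internal exons hold 54.5% to 60.6% of the exonic counts of these genes and so dominate the change of the gene in that test. Its 25 calls became 1 without SMI replicate 1 and 5 to 8 without replicates 1 or 2 of MDH2 IP or replicates 2 or 3 of SMI. A direct test of internal against first and last exons together, the interaction of part and group, was therefore added after seeing the data. It called 783 of 8556 genes (9.15%) above and 332 (3.88%) below, with a median difference of 0.10 on the log2 scale. Over IgG IP the first test called 1 gene above, ADARB1, an RNA-editing adenosine deaminase, and 0 below, against 0.0112% and 0.0447%, and the interaction 68 (0.91%) above and 66 (0.883%) below. For IgG IP over SMI they called 11 above and 4 below, against 1.02% and 0.323%, and 244 (3.29%) and 150 (2.02%).

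Of the genes named from the first test, WDR74, which acts in ribosome assembly, had the largest difference above the other exons. For each count in its other exons its internal exons had 0.053, 0.041 and 0.076 counts in MDH2 IP, 0.008, 0.006 and 0.011 in SMI and 0.042, 0.023 and 0.037 in IgG IP. The log2 difference was 2.75 for MDH2 IP over SMI (SE 0.16, edgeR adjusted p = 6.76e-14) and 2.08 for IgG IP over SMI. Its first exon, in which most of its counts lie, fell by 1.84 on the log2 scale, and its internal exons rose by 0.90. The difference thus rests largely on the first exon, and the part of small RNAs in those counts was not tested. YOD1, a deubiquitinase, CDK6, a cell cycle kinase, DYRK2, a protein kinase, and GMFB, a regulator of actin branching, had differences of 1.93, 1.89, 1.82 and 1.75, with last exons at -1.35, -1.44, -0.71 and -1.76. STRADA, a pseudokinase that activates LKB1, went the other way, with 0.147, 0.065 and 0.065 internal-exon counts per other exon count in MDH2 IP, 1.06, 0.833 and 0.586 in SMI, a difference of -3.12, and its last exon was at 2.43. IgG IP had 0.164, 0.158 and 0.176 for STRADA, a difference from SMI of -2.26 (edgeR adjusted p = 0.00522), and for CDK6 its difference from SMI was 1.64 (edgeR adjusted p = 0.0105). For YOD1, DYRK2 and GMFB the differences of IgG IP from SMI were 1.33, 0.55 and 1.44 and did not pass the test.

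The genes described above were also read in this test. Against the other exons, in MDH2 IP over SMI, internal exons of NCL lay above (0.58, edgeR adjusted p = 0.0109), and those of HSP90B1, SRRM2 and PABPC1 lay below them (-0.70, -1.12 and -1.06). HSP90B1, SRRM2 and PABPC1 also lay below in IgG IP over SMI (-1.55, -0.89 and -1.26, edgeR adjusted p = 0.000427, 0.0328 and 0.000359). NCL did not pass the test there (0.33). In MDH2 IP over IgG IP none of these genes, NCL included, passed the test. HSP90AB1, CLU, EEF2 and MDH2, with 0.21, -0.07, -0.19 and -0.33 in MDH2 IP over SMI, did not pass the test. Of the ribosomal protein genes 3 were above and 19 of 54 below, with a median of -0.33, of the hnRNP and SR proteins 10 of 33 above and 0 below, with a median of 0.29, and of 14 glycolytic enzymes 5 above and 1 below. When 1 library was left out, the interaction called between 544 and 756 genes above and between 220 and 293 below for MDH2 IP over SMI, with the lowest of both without SMI replicate 3. Over IgG IP it called 4, 6 and 7 above and 13, 17 and 11 below without MDH2 IP replicates 1, 2 and 3, 130 and 117 without IgG IP replicate 1, and 42 above without IgG IP replicate 2. For IgG IP over SMI it called 79, 73 and 61 above and 45, 39 and 33 below without SMI replicates 1, 2 and 3, and 267 below without IgG IP replicate 1.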

How the data were processed

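Cross-link sites were counted in 9 eCLIP libraries of Huh7 cells, with 3 libraries to a group. The authors removed adapters with cutadapt, aligned reads to GRCh38 (hg38) with STAR, keeping up to 10 alignments per read, collapsed PCR duplicates by their molecular identifiers, and counted sites 1 nt upstream of the read start per window (50 nt, step 20 nt) on the GENCODE 23 annotation with tRNA genes. The deposited values are raw counts of sites per window and carry no normalization. Counting intervals (95%, exact) and the floor of 3 counts per library cover counting error only.

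From these counts, windows were tested with edgeR 4.0.16 (R 4.3.3; TMM, quasi-likelihood F test, only the 2 groups compared in each fit). Windows that reached 10 counts in 3 or more libraries were tested one-sided, each p was multiplied by the number of tested windows that overlap it, and Benjamini-Hochberg adjustment ran over all tested windows. Sums per gene of first exon, internal exons, last exon and introns were tested two-sided and adjusted over all parts. Internal exons were set against the other exons with diffSpliceDGE and, in a test chosen after seeing the data, as an interaction of part and group. Alternatives were DESeq2 1.42.0, other library sizes, other count filters, windows that do not overlap, the replicate number as a block and leaving out each library. Shares and ratios were compared with exact permutation tests (scipy 1.17.1). The tests were checked on simulated data.

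Window numbers run along the whole gene, so positions, coding annotation and sequences were rebuilt from GENCODE 44 exons for the 3313 genes (27.3%) in which the rebuilt windows fitted the table. Members and gene lists were chosen with earlier results of these data known. Named were the 10 enriched windows with the largest change over SMI without overlap of libraries (1 per gene), the 5 genes with most MDH2 IP counts in enriched windows, windows enriched over IgG IP, the 5 largest rises and falls of sums and of internal against other exons, the 3 members of each list with the most SMI counts, and MDH2, PABPC1, CLU, HSP90AB1, HSP90B1 and EEF2. Other genes and the printed sequences were chosen after their values were seen. Some items are not reported here.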

Additional observations from a re-analysis of the deposited data

How the results depend on the processing

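Counts of called windows depended on the scaling, the filter and single libraries, and the cause was not tested. For MDH2 IP over SMI, enriched windows numbered 674, and 234 by DESeq2, 4431 with total counts, 1485 with the replicate block and 0 of 684756 with a filter of 1 count by edgeR, where 66015 had an unadjusted p below 0.05. The lower windows numbered 935, and 606 by DESeq2, 217 with total counts, 412 with a filter of 20 counts and 0 with 1 count. For MDH2 IP over IgG IP the 3 enriched windows became 0 by DESeq2, 1196 with total counts and 5 with 20 counts, and the 202 lower 83 and 69 with total counts and 20 counts. For IgG IP over SMI the 329 enriched became 193 with total counts and 125 with 20 counts, and the 236 lower 79 by DESeq2, 1250 and 106. Without 1 library these counts ranged from 82 to 380, 0 to 3 and 153 to 254 enriched and from 422 to 782, 94 to 218 and 84 to 247 lower. Leaving out an MDH2 IP library left 2899 to 3035 of 14113 windows to test over IgG IP, and leaving out an SMI library 2726 to 2753 of 11053 for IgG IP over SMI.

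Genes higher by their internal-exon sum numbered 2989 with total counts and 2835 with the replicate block for MDH2 IP over SMI, and 2424 and 1817 over IgG IP. With the block 15 of 24 secreted plasma proteins were higher over SMI and 1 lower. Genes lower numbered 73 and 599, and 49 and 161, and for IgG IP over SMI 812 with total counts, 731 with the block and 253 with windows that do not overlap. Without 1 library 618 to 1473, 243 to 1292 and 289 to 573 were higher and 100 to 188, 21 to 126 and 136 to 601 lower. Internal against other exons, diffSpliceDGE called 259 above and 31 below with the block for MDH2 IP over SMI (783 and 332 by the interaction), 68 and 66 by the interaction over IgG IP, and 244 and 150 by the interaction for IgG IP over SMI, with 7 below at 20 counts and 10 with the block. Without 1 library it called 1 to 19, 0 to 1 and 1 to 9 above and 1 to 1, 0 to 0 and 1 to 7 below.

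Without 1 library the difference in the internal-exon share ranged from 8.58 to 10.3 points for MDH2 IP over SMI, 11.05 to 13.1 over IgG IP and -3.47 to -1.51 for IgG IP over SMI. The ratio to the last exon differed by 0.42 to 0.547, 0.186 to 0.312 and 0.169 to 0.269, to the first exon by -1.64 to -1.17, 0.305 to 0.782 and -2.12 to -1.73, and to introns by 0.272 to 0.364, 0.385 to 0.477 and -0.139 to -0.0865. The first-window share differed by 0.0271 to 0.162, 0.98 to 1.48 and -1.37 to -0.871, and turned to -0.0637 for MDH2 IP over SMI with windows that do not overlap and to -0.138 without the 10 genes with most SMI counts. The share in exons of more than 20 windows differed by -0.573 to 0.0948, -8.04 to -5.42 and 5.19 to 7.81, and turned to 0.518 without those 10 genes for MDH2 IP over SMI. Of single genes over SMI, EEF2, EIF4A1 and GAPDH turned to 0.0552, 0.0252 and 0.0172 with total counts, and PABPC1 to 0.0215 by DESeq2, 0.287 with total counts, 0.028 with 20 counts and 0.0169 with windows that do not overlap. RPSA over IgG IP turned to 0.235 with total counts. Without 1 library the ranges were -0.46 to 0.0469 for EEF2, -0.11 to 0.11 for PABPC1, -0.11 to 0.25 for ALB and -0.26 to 0.32 for HSPA8 over SMI, and -0.32 to 0.29 for RPSA and -0.00164 to 0.35 for SRRM2 over IgG IP.

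The main fits did not pair the libraries by replicate number. SMI was set aside from the lysate before the IP, so an SMI library can share its lysate with an MDH2 IP library. The labels do not say which libraries share one. The deviations from the group means of same-numbered MDH2 IP and SMI libraries correlated by 0.04, 0.38 and 0.38. Every MDH2 IP library correlated best with the SMI library of its own number. If the numbers do pair these libraries, the main fits left that pairing out, and the fits with the replicate block gave other numbers of calls. With IgG IP 1 of the 3 correlations was below 0. The lower depth of the IgG IP libraries limits every comparison with them.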
